A study of Mus musculus with 2 samples.

Results

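Histone genes were compared between mouse CD4 T cells cultured under conditions labelled pathogenic Th17 (pTh17) and non-pathogenic Th17 (npTh17). They were taken as the rows of the deposited count table whose gene name begins Hist1h to Hist4h, H1f to H4f, H2a or H2b, which gave 101 of 22036 named genes. Of these, 67 are cluster genes (names beginning Hist1h to Hist4h) and 34 are replacement variants and other histone genes. The cells came from wild-type spleen and lymph nodes and were kept for 24 h over plate-bound antibodies, 10 μg/mL against CD3 and 5 μg/mL against CD28. The pTh17 culture contained activin A (20 ng/mL) and IL-6 (20 ng/mL). The npTh17 culture contained TGFβ1 (2 ng/mL) with the same dose of IL-6, and each culture also held anti-IFNγ and anti-IL-4. Each culture gave 1 library, the sources used here do not say how many mice were pooled, and no difference below has a replicate check.

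Histones package DNA into nucleosomes, whose core holds the histones H2A, H2B, H3 and H4, while the linker histone H1 binds where DNA enters and leaves. The cluster genes are replication-dependent: they are transcribed mainly in S phase, when new DNA is packaged, and activated T cells divide fast. Most of their mRNAs carry no poly(A) tail and end instead just after a short stem-loop, which is bound by the stem-loop binding protein encoded by Slbp. Replacement variants such as H3.3 and H2A.Z come from ordinary polyadenylated mRNAs and enter chromatin outside replication as well. RNA was selected here on oligo(dT) beads, so the values are for histone transcripts that this selection retained. How much of the histone mRNA that was, in either culture, was not measured.

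The stem-loop is what sets the cluster transcripts apart, and it is given here for genes that the results turn on. The lines give the stretch of each GENCODE M21 transcript, 5′ to 3′, with the stem and its loop in capitals. The first 4 genes were among those most above a ratio of 1 in counts, and the last 2 were below it.
Hist1h3a: ccaaaGGCTCTTTTCAGAGCCacaca
Hist1h2bj: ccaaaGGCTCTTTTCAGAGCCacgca
Hist1h4i: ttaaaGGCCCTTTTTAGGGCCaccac
Hist1h2ao: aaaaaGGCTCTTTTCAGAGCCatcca
Hist1h1c: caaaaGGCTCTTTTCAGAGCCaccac
Hist3h2a: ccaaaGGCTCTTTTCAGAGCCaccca

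The stem-loop was searched for as a single 16-base pattern, with C or T, or A or G, allowed at set places. A histone stem-loop was found in the annotated transcript of 37 of 67 cluster genes, and 25 of these had the same core as Hist1h3a. It was found in 1 of 34 replacement and other histone genes, H2bfm, which had no count in either library. Outside the histone rows, 2 of 21813 protein-coding genes held one, or 0.00917%. The annotated transcript ended 37 bases after the stem-loop in Hist1h3a, 23 bases in Hist1h2bj and 31 bases in Hist1h2ao. It went on for 330 bases in Hist1h4i, 840 bases in Hist1h1c and 1643 bases in Hist3h2a. Among the models without it, those of Hist1h2ai, Hist1h2ak and Hist1h2an all had 393 bases. Those of Hist1h2bl, Hist1h2bn and Hist2h2bb all had 381 bases. Whether a transcript model without the stem-loop was annotated too short to reach it was not tested.

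The libraries held 30877656 counts on named genes in pTh17 and 33470161 in npTh17. The CD4 T cell markers summed to 86466 counts in pTh17 and 95560 in npTh17. The 2 CD8 T cell markers summed to 59 counts in pTh17 and 63 in npTh17. Of these, Cd8b1 had 51 and 55, and Cd8a had 8 in each library. The B cell markers summed to 25 counts in pTh17 and 6 in npTh17, with Pax5 and Blk at 0 in both. The 6 myeloid markers summed to 7 counts in pTh17 and 50 in npTh17, with Adgre1, Cd14 and Csf1r at 0 in both. The 4 NK cell markers summed to 2 counts in pTh17 and 0 in npTh17, and the 6 erythroid markers to 76 counts in pTh17 and 118 in npTh17. The part of these cells in the histone ratios was not tested.

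Cluster histone genes were higher in the pTh17 library, while the replacement variants together differed little. The 67 cluster genes summed to 3313 counts in pTh17 and 1928 in npTh17, or 107 and 57.7 CPM, the count scaled to a common library size. The log2 ratio of the sums, pTh17 over npTh17, was 0.89 (0.81 to 0.98), which is 1.86-fold. Here and below, ranges beside ratios are exact 95% intervals for counting error alone. The 34 replacement and other genes summed to 62512 counts in pTh17 and 59214 in npTh17, with a log2 ratio of 0.19 (0.17 to 0.21). The cluster ratio exceeded the replacement ratio by 0.70 on the log2 scale (0.62 to 0.79). In a bulk library, fewer cells with an RNA and less of it per cell cannot be told apart.

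The cluster ratio moved with transcript length and base composition. Among genes outside the histone rows that averaged 1 CPM or more, the median log2 ratio was 0.55 for the 43 genes with transcripts under 500 bases. It was 0.44 from 500 to 750 bases, 0.23 from 750 to 1000 bases and -0.031 for transcripts of 4000 bases or more. Of the 27 cluster genes at this level, 11 lay under 500 bases, with a median log2 ratio of 1.36. When the trend of all genes on length and GC content was removed, the log2 ratio of the cluster sum was 0.33, that of the replacement sum was 0.21, and their difference was 0.12. With the trend fitted without histone rows, the difference was 0.15. Values with the trend removed are given beside the sums of cluster genes by type, locus and transcript form, and they rest on few other genes as short and GC-rich as these.

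**Figure D1:**
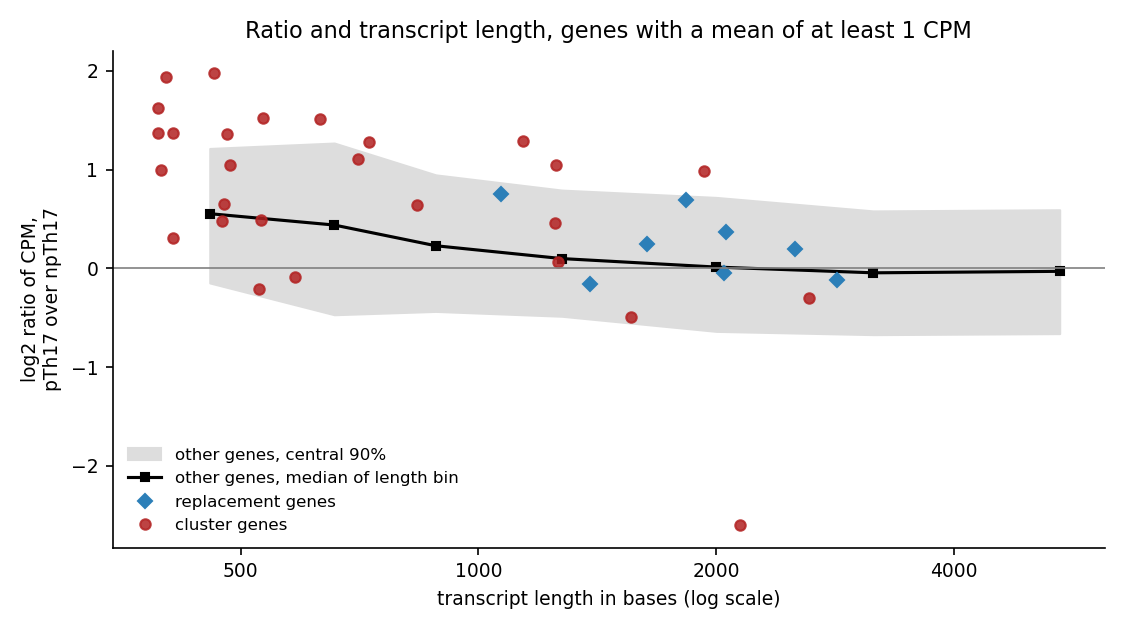
Log2 ratio of CPM (pTh17 over npTh17) against transcript length in bases on a log axis, for genes averaging 1 CPM or more. Red circles are cluster genes, blue diamonds replacement genes, black squares the median of other genes in each length bin and the grey band their central 90%. The median of other genes is 0.55 under 500 bases and near 0 for long transcripts, most short cluster genes lie above it, and Hist3h2a lies alone at the bottom.

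By transcript abundance, histone mRNA in both oligo(dT)-selected libraries was mainly that of the replacement variants. Most cluster mRNAs carry no poly(A) tail, so these shares do not give the abundance in the cells. Cluster genes took 0.0107% of counts on named genes in pTh17 and 0.00576% in npTh17, and replacement and other genes took 0.202% in pTh17 and 0.177% in npTh17. Per transcript length, the summed levels were 162 FPKM in pTh17 and 78.7 FPKM in npTh17 for the cluster genes, against 1024 and 838 FPKM for the replacement and other genes. The 5 cluster genes with the most counts, Hist1h3a, Hist1h3c, Hist1h2bj, Hist1h4i and Hist1h2ao, held 41.1% of the cluster counts in pTh17 and 26.4% in npTh17.

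Gene by gene, 22 of the 27 cluster genes averaging 1 CPM or more were above a ratio of 1 and 5 were below it. Above 1 were 49.4% of all genes at this level and 77.2% of those with transcripts under 1000 bases. Of the 27, 13 were at least 2-fold higher in pTh17, set against 2.25% of all 10597 genes at this level. In the other direction, 1 cluster gene, Hist3h2a, was at least 2-fold lower, against 1.95% of all genes. Of the genes past 2-fold, Hist1h4m, Hist1h2ak, Hist1h3i and Hist1h4d were under 1 CPM in npTh17, and Hist3h2a in pTh17. They passed the filter through their other library, so it favours large ratios among them. The median log2 ratio was 1.00 for the cluster genes and -0.0045 for all genes. Among all genes in the same range of CPM, 8.41% were at least 2-fold higher and 6.79% lower. Among all genes with transcripts under 1000 bases, 8.8% were higher and 0.765% lower. With the trend removed, 4 of the 27 were at least 2-fold higher and 2 lower, against 1.93% and 2.01% of all 10594 genes with a fitted trend. The median of the cluster genes was then 0.33, and the directions of Hist1h2ab, Hist1h2bk, Hist1h3g and Hist1h3h turned.

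A wider set, with at least 10 counts over both libraries, held 58 of the 67 cluster genes. Of these, 46 were above a ratio of 1, against 49.9% of all 12225 such genes. At least 2-fold higher in pTh17 were 24, against 5.12% of all such genes, and 2 were at least 2-fold lower, against 4.71%. The counting interval lay above 1 for 28 and below 1 for 2 of the 58, against 31.4% and 31.9% of all such genes. Among genes at 1 CPM or more with transcripts under 1000 bases it lay above 1 for 64.4%. Halving all counts, for the case that a fragment added 2 to a count, left 20 and 2.

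**Figure D2:**
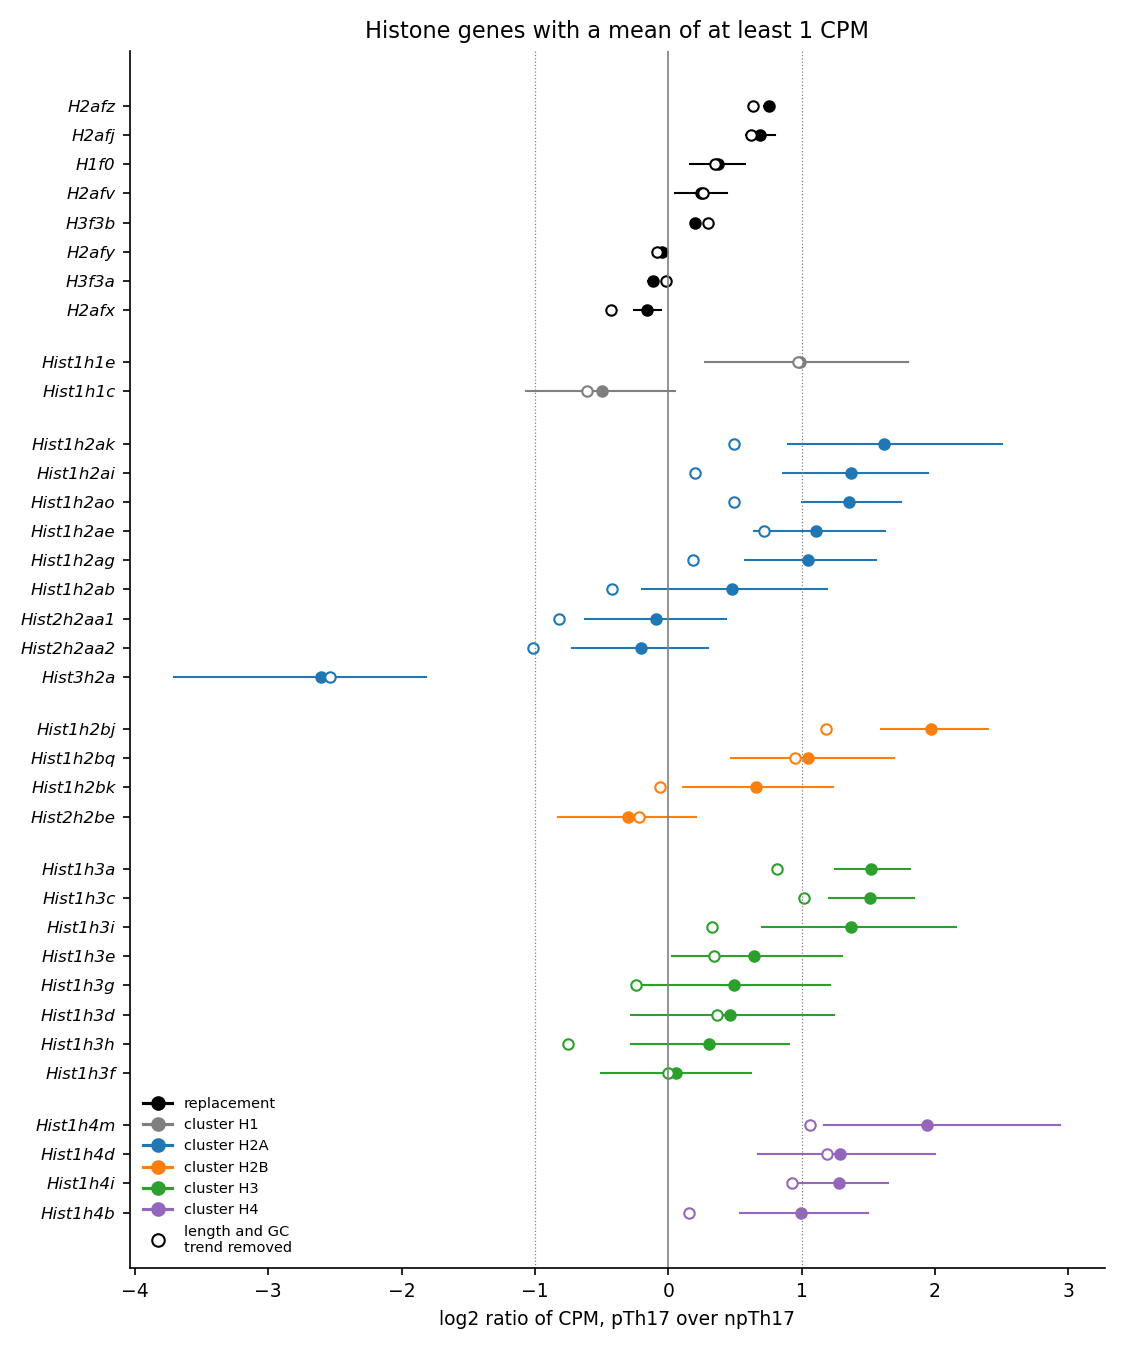
Log2 ratio of CPM, pTh17 over npTh17, for the 35 histone genes averaging 1 CPM or more, grouped by class and histone type. Filled circles are the ratios, lines their 95% counting intervals, open circles the ratios with the length and GC trend removed, and dotted lines mark 2-fold. Of the 27 cluster genes, 22 lie right of 0, Hist1h2bj is farthest right at 1.97, and the 8 replacement genes lie within 2-fold.

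The highest cluster genes encode H3 and H2B. Hist1h3a, an H3 gene on chromosome 13 (23761853 to 23762386, minus strand), was the most abundant cluster gene per length, at 20.4 FPKM in pTh17 and 7.06 FPKM in npTh17. It had 384 counts in pTh17 and 144 in npTh17, or 12.4 and 4.31 CPM. Its log2 ratio was 1.52 (1.25 to 1.81), and 0.82 with the trend removed. Hist1h3c, which encodes H3 too, had 303 counts in pTh17 and 114 in npTh17, a log2 ratio of 1.51 (1.21 to 1.85), and 1.02 with the trend removed. The H2B gene Hist1h2bj (chromosome 13, 22043214 to 22043676, plus strand) had the highest ratio at this level, with 250 counts in pTh17 and 68 in npTh17. It was 3.93-fold higher (3.03 to 5.27), a log2 ratio of 1.97, and 1.18 with the trend removed. For these 3 genes the interval lay above a ratio of 1, and with the trend removed the ratio was smaller but still above 1.

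H2A and H4 genes of the same cluster were next. Hist1h4i, an H4 gene, had 217 counts in pTh17 and 96 in npTh17, a log2 ratio of 1.28 (0.94 to 1.65). Hist1h2ao, an H2A gene, had 208 counts in pTh17 and 87 in npTh17, a log2 ratio of 1.36 (1.00 to 1.75), which was 0.49 with the trend removed. Hist1h4m, a second H4 gene, had only 56 counts in pTh17 and 15 in npTh17, a log2 ratio of 1.94 (1.17 to 2.94). The H2A gene Hist1h2ak had 56 counts in pTh17 and 19 in npTh17, a log2 ratio of 1.62 (0.90 to 2.51). The H3 gene Hist1h3i had 59 counts in pTh17 and 24 in npTh17, a log2 ratio of 1.37 (0.70 to 2.16). With the trend removed, Hist1h4i stood at 0.93 and Hist1h4m at 1.07. Hist1h2ak then stood at 0.50 (-0.23 to 1.38) and Hist1h3i at 0.33 (-0.34 to 1.11). Among the other genes with many counts, the log2 ratio was 1.37 for Hist1h2ai, 1.11 for Hist1h2ae, 1.04 for Hist1h2ag and 1.00 for Hist1h4b. With the trend removed these 4 stood at 0.20, 0.71, 0.18 and 0.15. The H3 gene Hist1h3f was level, with 55 counts in pTh17 and 57 in npTh17, a log2 ratio of 0.06 (-0.50 to 0.62).

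Copies of one histone gene can share reads, because the coding sequences are near-identical. Of the 67 cluster genes, 28 shared at least 50% of their 75-base words with another gene, as did 13 of the 27 at 1 CPM or more and 0 of the 8 replacement genes. Hist1h2ao shared 93.1%, Hist1h4m 89.0%, Hist1h2bj 50.4% and Hist1h3a 38.5%. How reads in shared sequence were assigned is not given in the sources used here, so single values of Hist1h2ao and Hist1h4m are uncertain while sums over a type are less so. Without the genes that shared at least 50%, the log2 ratio of the cluster sum was 0.84.

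By histone type, the summed counts of each core histone were higher in pTh17 and those of the linker histone H1 were level, and for H2A the direction turned with the trend removed. The 12 H3 genes summed to 1043 counts in pTh17 and 531 in npTh17, a log2 ratio of 1.08 (0.93 to 1.24), and 0.52 with the trend removed. The 18 H2B genes summed to 705 counts in pTh17 and 348 in npTh17, a log2 ratio of 1.13 (0.94 to 1.32), and 0.68 with the trend removed. The 13 H4 genes summed to 524 counts in pTh17 and 269 in npTh17, a log2 ratio of 1.07 (0.86 to 1.29), and 0.59 with the trend removed. These 3 types had closely similar ratios, and their intervals overlapped.

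The 18 H2A genes summed to 874 counts in pTh17 and 601 in npTh17, a log2 ratio of 0.65 (0.50 to 0.80), which turned to -0.16 with the trend removed. Their median GC content was 64.2%, above the 53.1% to 59.9% of the other types. The 6 H1 genes summed to 167 counts in pTh17 and 179 in npTh17, a log2 ratio of 0.01 (-0.30 to 0.32), and -0.14 with the trend removed. The core histone genes together exceeded H1 by 0.95 on the log2 scale (0.63 to 1.26). After removal of the trend the core genes stood at 0.37 and the difference was 0.52.

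**Figure D3:**
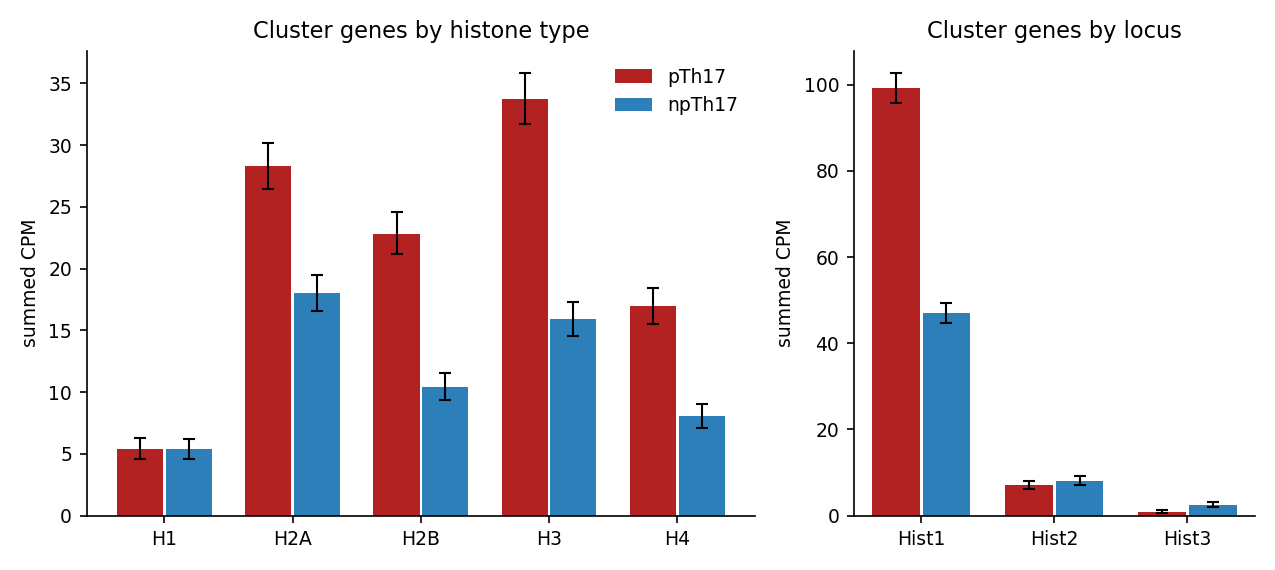
Summed CPM of the cluster genes in the pTh17 (red) and npTh17 (blue) libraries, by histone type (left) and by locus (right), with bars from 0 and whiskers for the 95% counting interval. H3 stands at 33.7 CPM in pTh17 and 15.9 CPM in npTh17, H1 is level, and the Hist1 locus holds most of the sum.

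H1 genes lay on both sides of a ratio of 1. Hist1h1e had 45 counts in pTh17 and 24 in npTh17, a log2 ratio of 0.99 (0.27 to 1.80). Its exons overlap those of Hist1h2be on the same strand over 496 bases, so its value is uncertain. Hist1h1c, the H1 gene with the most counts, had 47 counts in pTh17 and 72 in npTh17, a log2 ratio of -0.49 (-1.07 to 0.05). Hist1h1d had 19 and 29 counts, Hist1h1a 29 and 29, and Hist1h1b 27 and 25, in pTh17 and npTh17. The intervals of these last 4 genes all held a ratio of 1.

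By locus, the higher cluster counts were those of Hist1. The 54 genes of Hist1 on chromosome 13 summed to 3066 counts in pTh17 and 1572 in npTh17, a log2 ratio of 1.08 (0.99 to 1.16), and 0.50 with the trend removed. The 10 genes of Hist2 on chromosome 3 summed to 218 counts in pTh17 and 272 in npTh17, a log2 ratio of -0.21 (-0.47 to 0.06), and -0.63 with the trend removed. The Hist1 ratio exceeded the Hist2 ratio by 1.28 on the log2 scale (1.01 to 1.55). Hist4h4, the single gene of Hist4, had no count in either library.

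All 3 Hist2 genes at 1 CPM or more were below a ratio of 1, with intervals that held 1. Hist2h2be, an H2B gene, had 57 counts in pTh17 and 76 in npTh17, a log2 ratio of -0.30 (-0.82 to 0.21). The H2A genes Hist2h2aa1 and Hist2h2aa2 are near-identical copies, so their values were also added: 119 counts in pTh17 and 143 in npTh17, a log2 ratio of -0.15 (-0.52 to 0.21), and -0.91 with the trend removed. Hist2h4, an H4 gene, had 0 counts in pTh17 and 15 in npTh17. It was 4.63-fold lower when 3 counts are taken as the floor of a library with none, counting error left out.

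The 2 Hist3 genes on chromosome 11 went opposite ways. Hist3h2a, an H2A gene (58954685 to 58956830, plus strand), had 12 counts in pTh17 and 84 in npTh17, and was 6.07-fold lower in pTh17 (3.52 to 13.0). Its log2 ratio was -2.60 from counts, -2.54 with the trend removed and -2.14 from FPKM, the farthest below 0 of the cluster genes at this level. Its exons overlap those of Trim17 on the same strand over 708 bases, and Trim17 had 13 counts in pTh17 and 10 in npTh17, so its value is uncertain. Hist3h2ba, an H2B gene, had 17 counts in pTh17 and 0 in npTh17, and was 6.12-fold higher with 3 counts as the floor, counting error left out. Without Hist3h2a, the log2 ratio of the cluster sum was 0.95.

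Along chromosome 13, Hist1 splits at its 2 widest gaps into stretches of 18, 5 and 31 genes. The core histone genes of the first stretch (21715763 to 21837530) summed to 769 counts in pTh17 and 342 in npTh17, a log2 ratio of 1.28 (1.10 to 1.47). Those of the second stretch (22035164 to 22043676) summed to 671 and 282 counts in pTh17 and npTh17, a log2 ratio of 1.36 (1.16 to 1.57). Those of the third stretch (23531050 to 23934851) summed to 1459 counts in pTh17 and 769 in npTh17, a log2 ratio of 1.04 (0.91 to 1.16). The first exceeded the third by 0.25 (0.02 to 0.47), but with the trend removed the 3 stretches stood at 0.44, 0.71 and 0.56, and that order turned.

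**Figure D4:**
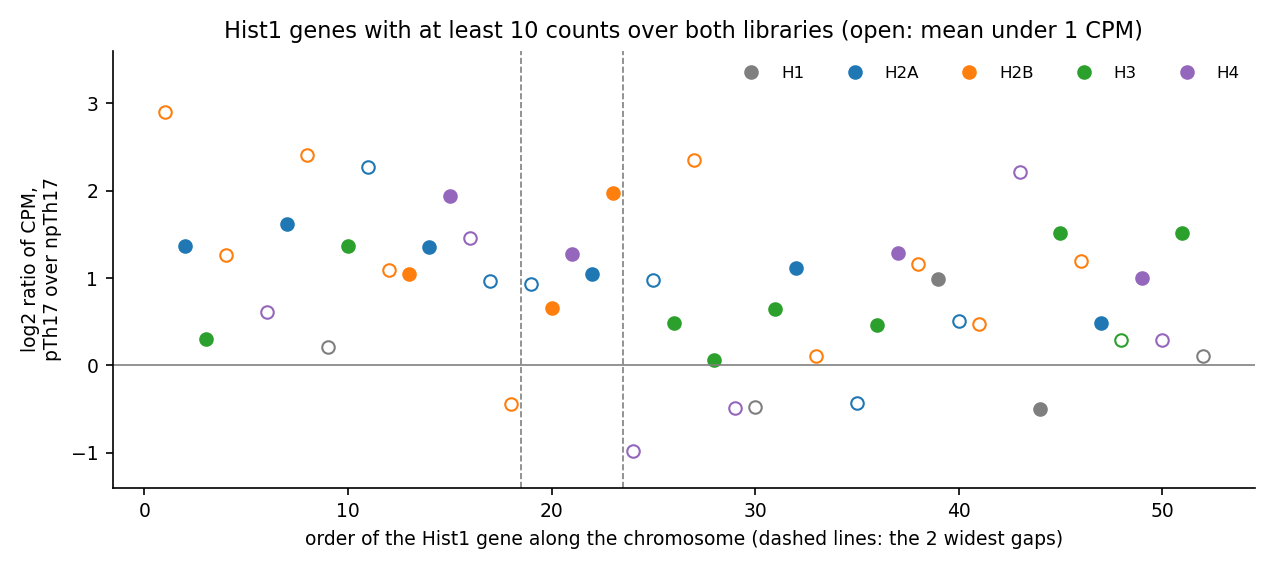
Log2 ratio of CPM, pTh17 over npTh17, of the Hist1 genes with at least 10 counts over both libraries, in their order along chromosome 13 and coloured by histone type. Filled points average 1 CPM or more, open points less, and dashed lines mark the 2 widest gaps. Most points lie above 0 in all 3 stretches, and Hist1h1c is the filled point below 0.

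H2A and H2B genes of these loci stand in pairs whose starts face away from each other over 176 to 306 bases, 12 pairs in all. Of the 11 pairs with a count, both genes were above a ratio of 1 in 8, both were below in 1, and the genes went opposite ways in 2. Taken singly, 46 of 58 cluster genes with at least 10 counts were above 1, and 49.9% of all such genes. Some pairs rest on few counts, such as Hist1h2bf with 1 in pTh17 and 5 in npTh17. Nor are all pairs separate, as Hist1h2ao shared 93.1% and Hist1h2ap 92.6% of 75-base words with other genes. The pair with most counts was Hist1h2ag with 106 counts in pTh17 and 55 in npTh17, and Hist1h2bj, described above. In the pair of Hist1h2ae and Hist1h2bg, Hist1h2ae had 109 counts in pTh17 and 54 in npTh17, and Hist1h2bg 11 in each.

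The form of the transcript also went with the ratio before the trend was removed. The 48 cluster genes with a single-exon transcript under 1000 bases summed to 2762 counts in pTh17 and 1395 in npTh17, a log2 ratio of 1.10 (1.00 to 1.19). The 19 with a longer or spliced transcript summed to 551 counts in pTh17 and 533 in npTh17, a log2 ratio of 0.16 (-0.02 to 0.33). With the trend removed these were 0.40 and 0.12. Among the core genes of Hist1 alone, the short form had a log2 ratio of 1.23 and the longer form 0.79, and with the trend removed the order turned, at 0.53 and 0.73.

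The letters AATAAA, a common polyadenylation signal, stand on the sense strand in the last 50 bases of 14 cluster transcripts and of 59.2% of all protein-coding genes. Those 14 genes summed to 351 counts in pTh17 and 377 in npTh17, a log2 ratio of 0.01 (-0.20 to 0.22). The other 53 summed to 2962 counts in pTh17 and 1551 in npTh17, a log2 ratio of 1.04 (0.96 to 1.13). These stood at -0.17 and 0.43 after removal of the trend. The first set includes Hist2h2be, Hist3h2a and Hist1h1c, so it is not separate from the results by locus. Genes whose transcript ended under 200 bases after the stem-loop had a log2 ratio of 1.07 (0.95 to 1.20), those that went on for longer 0.51 (0.32 to 0.69), and those with no stem-loop in the transcript 0.87 (0.74 to 1.01). The 3 sets were level once the trend was removed, at 0.33, 0.35 and 0.31. Genes set apart by a missing stem-loop or a missing AATAAA may include models annotated too short, which was not tested.

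Promoters of the same genes are shown next because most Hist1 genes were higher in pTh17 while Hist3h2a was lower. Each line gives 150 bases before the RefSeq start in build GRCm38.p6, read along the strand of the gene, with CCAAT or TATAAA or ATTTGCAT, on either strand, in capitals. The windows are chr13:22043048-22043197 (plus strand) for Hist1h2bj, chr13:22041363-22041512 (minus strand) for Hist1h4i, chr11:58954535-58954684 (plus strand) for Hist3h2a and chr3:137864337-137864486 (plus strand) for H2afz, a replacement gene.
Hist1h2bj: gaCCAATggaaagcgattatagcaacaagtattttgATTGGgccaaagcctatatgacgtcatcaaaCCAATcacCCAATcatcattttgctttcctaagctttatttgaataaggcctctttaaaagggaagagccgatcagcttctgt
Hist1h4i: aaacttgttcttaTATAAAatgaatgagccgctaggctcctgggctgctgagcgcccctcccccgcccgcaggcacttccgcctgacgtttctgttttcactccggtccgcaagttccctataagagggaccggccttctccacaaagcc
Hist3h2a: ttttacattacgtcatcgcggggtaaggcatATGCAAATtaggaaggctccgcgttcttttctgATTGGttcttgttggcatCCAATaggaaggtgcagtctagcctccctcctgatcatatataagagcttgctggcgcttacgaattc
H2afz: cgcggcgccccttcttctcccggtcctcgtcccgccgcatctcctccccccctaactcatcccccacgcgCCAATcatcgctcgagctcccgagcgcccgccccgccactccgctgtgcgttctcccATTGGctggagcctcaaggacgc

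RefSeq promoters were matched for 95 of the 101 histone genes, 62 of them cluster genes. Histone windows are counted by gene, so a motif in any window of a gene counted, while all promoters are counted by window. CCAAT stood in 51 of these 62 windows, or 82.3%, against 24.5% of all 32851 promoter windows of the same length. It stood in all 18 H2A and all 16 H2B windows and in 3 of 12 H4 windows. TATAAA stood in 24 of 62 windows, or 38.7%, against 7.57% of all windows. ATTTGCAT, the octamer, stood in 11 of 62 windows, or 17.7%, against 0.998% of all windows. The 11 were 6 H2B and 5 H2A windows. They include that of Hist3h2a, lower in pTh17, and those of Hist1h2ae, Hist1h2bm, Hist1h2bb and Hist1h2be, with log2 ratios of 1.11, 1.26, 1.20 and 1.16. The others were Hist1h2bk at 0.65, Hist1h2ac at 0.51, Hist1h2ab at 0.48, Hist1h2bg at 0.10 and Hist2h2bb at -0.65, and Hist1h2aa with no count. Of these, Hist1h2ac and Hist2h2bb had few counts. Hist1h2be held the octamer in its window at chr13:23585971-23586120 and not in that at chr13:23621095-23621244. A match describes the letters of a window and not binding.

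Among replacement variants, the H2A.Z gene H2afz stood out from the H3.3 genes, while the second H2A.Z gene did not. H2afz, which encodes the H2A.Z found at promoters and enhancers, had 14675 counts in pTh17 and 9418 in npTh17, or 475 and 282 CPM. Its log2 ratio was 0.75 (0.71 to 0.79), which is 1.68-fold, and 0.64 with the trend removed. H2afv, the second H2A.Z gene, had 456 counts in pTh17 and 415 in npTh17, a log2 ratio of 0.25 (0.05 to 0.44). It stood at 0.26 with the trend removed. H2afj, an H2A variant gene, had 1706 counts in pTh17 and 1143 in npTh17, a log2 ratio of 0.69 (0.58 to 0.80), and 0.62 with the trend removed. None of the 8 replacement genes at 1 CPM or more passed 2-fold. Of all genes at this level, 2.25% were at least 2-fold higher and 1.95% lower, so none among 8 says little.

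The genes of H3.3, the H3 variant laid down outside replication, lay close to 1 and on either side of it. H3f3b had 20211 counts in pTh17 and 19018 in npTh17, a log2 ratio of 0.20 (0.17 to 0.23), and 0.30 with the trend removed. H3f3a had 14065 counts in pTh17 and 16479 in npTh17, a log2 ratio of -0.12 (-0.15 to -0.08), and -0.02 with the trend removed. Together they stood at a log2 ratio of 0.06 (0.04 to 0.08), and cluster H3 exceeded them by 1.02 (0.87 to 1.18). With the trend removed, cluster H3 stood at 0.52 and the H3.3 genes at 0.16. The 2 H2A.Z genes together had a log2 ratio of 0.73 (0.70 to 0.77), and cluster H2A differed from them by -0.08 (-0.24 to 0.07). With the trend removed cluster H2A stood at -0.16 and the H2A.Z genes at 0.62, a difference of -0.78. The replacement H2A genes outside the germline, summed, had a log2 ratio of 0.36 (0.34 to 0.39), which cluster H2A exceeded by 0.29 (0.14 to 0.44). That order turned once the trend was removed, with a difference of -0.43.

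Of the remaining replacement genes, H2afx, the variant phosphorylated at DNA breaks, had 1479 counts in pTh17 and 1784 in npTh17, a log2 ratio of -0.16 (-0.26 to -0.06). H2afy, which encodes macroH2A1, had 9464 counts in pTh17 and 10584 in npTh17, a log2 ratio of -0.05 (-0.09 to -0.01). H1f0, a replacement linker histone gene, had 432 counts in pTh17 and 361 in npTh17, a log2 ratio of 0.37 (0.17 to 0.58). H1fx, another linker histone gene, had 12 counts in pTh17 and 0 in npTh17, at least 4.32-fold higher, and H2afy2 had no count in either library. Per length, H2afz was the most abundant single histone gene in pTh17, with 392 FPKM in pTh17 and 232 FPKM in npTh17, while in npTh17 H3f3b had more, with 287 FPKM in pTh17 and 251 FPKM in npTh17.

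At low levels, 27 members under 1 CPM had at least 10 counts in a library, 25 of them cluster genes. Of these 25, 20 were above a ratio of 1 and 5 below. In pTh17, 10 of the 25 were at least 2-fold higher, against 25.3% of all 1369 genes at this low level, and 1, Hist2h4, was at least 2-fold lower, against 25.6%. Genes could enter this set through 1 library alone, as Hist1h2bh, Hist1h4c, Hist1h2bl, Hist1h2an and Hist1h2bn did through pTh17. The filter itself thus favours large ratios, and these counts are no support for a difference. The H2B gene Hist1h2bh had 37 counts in pTh17 and 7 in npTh17, and was 5.10-fold higher (2.51 to 15.2). Hist1h4c, an H4 gene, had 25 counts in pTh17 and 5 in npTh17, 4.65-fold higher in pTh17 (2.03 to 18.1). Hist1h2bl, an H2B gene, had 27 counts in pTh17 and 3 in npTh17, a ratio of 7.48 (2.99 to 50.1). The H2A gene Hist1h2an had 17 counts in pTh17 and 3 in npTh17, a ratio of 4.81 (1.77 to 32.6). Hist1h2bn, an H2B gene, had 14 counts in pTh17 and 2 in npTh17, a ratio of 5.32 (1.74 to 68.6), so these last 3 ratios rest on 2 or 3 npTh17 counts.

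The others above 1 were Hist1h2bc, Hist1h3b, Hist1h1a, Hist1h2bm, Hist1h1b, Hist1h2bb, Hist1h2ah, Hist1h2be, Hist1h4n, Hist1h2ap, Hist1h2bg, Hist1h2af, Hist2h2ac and Hist2h3c1, besides Hist3h2ba. Below 1, besides Hist2h4, were Hist1h2ad, Hist1h1d, Hist1h2br and Hist1h4h, the last with 8 counts in pTh17 and 18 in npTh17. A further 15 members had fewer than 10 counts in both libraries and 24 had none. Among these were nearly all of the 27 genes restricted to the germline, such as the H2al1 genes of spermatids, whose counts summed to 12 in each library. H2al1m alone among them reached 10 counts, with 11 in pTh17 and 5 in npTh17.

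Genes that work with histones stood closer to a ratio of 1 than the cluster genes. The 24 S phase genes had a median log2 ratio of 0.24 and 0.26 with the trend removed, with 21 above 1 and none past 2-fold. Of all genes at 1 CPM or more, 49.4% were above 1, 2.25% at least 2-fold higher and 1.95% lower. These shares stand beside the counts of the lists below too. The highest were Tk1, a thymidine kinase gene, at 0.76 (0.63 to 0.90), Tyms, the thymidylate synthase gene, at 0.57, the cyclin gene Ccne1 at 0.48 and E2f1, a transcription factor gene of S phase entry, at 0.45. The cluster sum exceeded the S phase sum by 0.75 on the log2 scale (0.66 to 0.83). With the trend removed the sums stood at 0.33 for cluster genes and 0.18 for S phase genes.

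The 14 genes of histone mRNA transcription and 3′ processing had a median log2 ratio of 0.008, with 8 above 1 and 6 below, and a median of 0.05 with the trend removed. Slbp had 8851 counts in pTh17 and 8183 in npTh17, a log2 ratio of 0.23 (0.18 to 0.27). Npat, the coactivator of cluster histone transcription, had 2944 counts in pTh17 and 3785 in npTh17, a log2 ratio of -0.25 (-0.32 to -0.18). Zfp473, a zinc finger protein of histone 3′ processing, stood at 0.47 (0.05 to 0.90) and Cpsf3, the histone pre-mRNA endonuclease, at -0.23 (-0.29 to -0.17).

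The 28 histone chaperone and exchange genes had a median log2 ratio of 0.05, with 19 above 1, 9 below and none past 2-fold, and a median of 0.08 with the trend removed. Hjurp, the chaperone of the centromeric H3 variant, stood at 0.36 (0.31 to 0.41), and that variant's gene, Cenpa, had 571 counts in pTh17 and 371 in npTh17, a log2 ratio of 0.73 (0.54 to 0.93). Chaf1a, a subunit of the complex that lays down H3 at replication, stood at 0.29. Srcap and Anp32e, which insert and remove H2A.Z, stood at 0.27 and 0.25, and Daxx, an H3.3 chaperone, at -0.24.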

How the data were processed

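Counts per gene and FPKM values (fragments relative to transcript length and depth) for 2 poly(A)-selected mRNA libraries were deposited by the authors, with each library in its own column, per the file headers. The submitters' processing notes name mm10 as the build. No aligner, counting program or annotation is given in the sources used here. No strand marking or molecular identifiers are described in the labels' protocols. Unnamed features, left out here, held 2.50% of all counts in pTh17 and 2.90% in npTh17.

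CPM used TMM-scaled library sizes (edgeR 4.0.16, R 4.3.3), and log2 ratios a prior count of 1. With 1 library per condition no test was made and no p-value computed. Intervals are exact Clopper-Pearson intervals of the share of counts in pTh17 and cover counting error only. Counts of 2 were 3.42 times as frequent among genes as counts of 1 in pTh17 and 4.37 times in npTh17, so a fragment may have added 2 and intervals may be too narrow. Genes averaging 1 CPM or more were counted as higher or lower at 2-fold. The length and GC trend was a smooth fit over these genes (mgcv 1.9.3), with lengths, positions and 3′ ends from GENCODE M21, in which 22022 of the named rows were found. The floor for a library without counts was 3 counts, and folds against it leave out counting error, so the true fold may be smaller.

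The members and gene lists were chosen with earlier results of these data known. Single genes named were every replacement gene at 1 CPM or more, the 12 most abundant, 6 highest and 6 lowest cluster genes at that level, members below it with at least 10 counts in a library, and up to 4 genes with the largest ratio of each other list, with Slbp, Npat and Cenpa. Hist1h1e, the H1 gene beside Hist1h1c at that level, and the 4 genes whose direction turned were named after their values were seen. A list of RNAs usually without a poly(A) tail matched no row. The calculations were tested on simulated data. Alternatives were DESeq2 1.42.0 size factors, no TMM factor, another prior count and filter, FPKM, and removal of the trend.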

Additional observations from a re-analysis of the deposited data

How the results depend on the processing

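No paired analysis was possible because each condition gave 1 library. No alternative turned the direction of the cluster or replacement sum, their medians or their difference. The spread of a sum or difference was its counting interval. For a median it was the counting interval of a single middle gene, which is not a spread over genes. DESeq2 size factors, no TMM factor, a prior count of 5, and leaving out the most abundant member left all of these within their spread. So did leaving out Hist3h2a, for the cluster sum and the difference, and members with shared sequence, for the sums and the difference.

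As log2 ratios with the length and GC trend taken out, the cluster sum was 0.33, its median 0.33, the replacement sum 0.21 and the difference between the sums 0.12. With the trend fitted without histone rows these were 0.36, 0.35, 0.21 and 0.15. With genes of at least 5 CPM only, the cluster sum was 1.63, its median 1.52 and the difference 1.44. The cluster values then rest on Hist1h3a, Hist1h3c and Hist1h2bj alone, each under 5 CPM in npTh17. These genes passed through their pTh17 level, so the filter itself favours high ratios and this setting is no check. From FPKM the cluster sum was 1.04 and the replacement sum 0.29. Genes past 2-fold numbered 445, 2328 with no filter and 197 at 5 CPM. Of 35 members at 1 CPM or more, 21 moved outside their interval with the trend removed and 9 of 14 called lost 2-fold. The fit without histone rows and the omission of Hist3h2a or of members with shared sequence were chosen after seeing the data.

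Depth limits single genes, and not the cluster genes alone. The counting interval of 9 of the 27 cluster genes at 1 CPM or more held a ratio of 1, with 17 above and 1 below. Over all 10597 genes at this level, it lay above 1 for 33.0% and below 1 for 34.0%. Among those with transcripts under 1000 bases, it lay above 1 for 64.4% and below 1 for 12.6%.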

Other observations

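Among transcripts encoded by the mitochondrial genome, the 13 measured genes had a median log2 ratio of -0.27, with 5 above 1 and 8 below. The highest was mt-Nd3, which had 6005 counts in pTh17 and 4611 in npTh17, a log2 ratio of 0.49 (0.44 to 0.55). The lowest was mt-Nd5, which had 63993 counts in pTh17 and 102276 in npTh17, a log2 ratio of -0.56 (-0.58 to -0.55), and mt-Nd6, on the other strand, stood at -0.53.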
